A study of Mus musculus with 24 samples.

Results

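Open chromatin was examined at 10 genes of the lymphoid lineage, the transcription factors Ebf1, Pax5, Ikzf1, Bcl11a and Satb1, the receptors Il7r and Notch1, and the recombination enzymes Rag1, Rag2 and Dntt. They are 10 of the 21911 protein-coding genes with an annotated start site in GENCODE. They were taken as a list, chosen with earlier results of these data known. Every accessible region within a gene or 50 kb of it was assigned to that gene on mm10, which gave 145 regions over all peak lists. The windows of Rag1 and Rag2 overlap and their regions were counted once, and several windows hold other genes, such as Capsl beside Il7r, Egfl7 and Inpp5e beside Notch1, and Blnk and Opalin beside Dntt.

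The 24 ATAC-seq libraries came from bone marrow of C57BL/6 mice and were made to compare cells with and without Daxx, a chaperone that deposits the histone variant H3.3. All mice carried 1 Cre allele, Daxx-WT mice being Daxx +/+ Cre +/- and Daxx-KO mice Daxx F/F Cre +/-, and the double knockout (DKO) mice were homozygous for floxed alleles of both genes (Daxx F/F and Pu.1 F/F, with the same Cre +/-). The first set held 2 Daxx-WT and 2 Daxx-KO libraries each of common myeloid progenitors (CMPs), granulocyte-macrophage progenitors (GMPs) and long-term haematopoietic stem cells (LT-HSCs), for which the study's methods give a tamoxifen-inducible Cre expressed from the Rosa26 locus and sorting at 3 weeks after treatment. The second set held LT-HSCs at 3 days post induction (d.p.i.; 2 Daxx-WT and 3 Daxx-KO libraries) from mice with that Cre, and c-Kit+ Lin- Sca-1+ (KLS) cells at 3 weeks post induction (w.p.i.; 2 Daxx-WT, 3 Daxx-KO and 2 DKO libraries) from mice in which pI:pC, an inducer of interferon, switches on Cre from the Mx1 promoter. The labels give every control as Daxx +/+, but the study's text names Daxx +/F beside Daxx +/+ among the LT-HSC controls soon after induction, so 1 of those Daxx-WT libraries may be heterozygous for the floxed allele. The mice were of both sexes and mostly young adults when treated, and the age of each is not given in the sources used here. Rosa26 and Mx1 Cre act in many cell types besides blood stem cells. The LT-HSCs at 3 d.p.i. were gated as negative for the Il7r protein, so Il7r was part of how those cells were chosen.

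Lymphoid cells arise from multipotent progenitors in which a few lineage genes become accessible, or primed, before they are fully expressed. Ikzf1 and Satb1 act early in this process, Bcl11a and Ebf1 are needed for B cell development, Pax5 then fixes B cell identity, and Notch1 directs progenitors to the T cell fate. Il7r carries the interleukin-7 signal that lymphoid progenitors need, Rag1 and Rag2 cut the antigen receptor genes, and Dntt adds untemplated nucleotides at the cut ends.

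The sequences below are those of regions that the results turn on, read from the mm10 genome (RefSeq GRCm38.p6) in the direction of the gene. Capitals mark matches on either strand to short strings of letters bound by factors of blood cells. The Pu.1 string searched was GAGGAAG, the form bound by Pu.1 among the ETS factors. For the Runx factors, which act throughout haematopoiesis, the string was TGTGGT. The E-box of the basic helix-loop-helix factors was searched as CAGCTG, the form common in lymphoid cells. The Ebf string, with any base at N, was TCCCNNGGG. The factor encoded by Ikzf1, Ikaros, was searched as TGGGAA. The string for Gata factors, which act in stem and erythroid cells, was AGATAA. No string contains another. The stretches before the start sites of Ebf1 (chr11:44617117-44617316, plus strand) and Rag1 (chr2:101649533-101649701, minus strand) are shown because each carried a peak in Daxx-KO KLS cells and none in Daxx-WT KLS cells. The Rag1 stretch ends where an exon of the divergent neighbour B230118H07Rik begins.
Ebf1 before the start site: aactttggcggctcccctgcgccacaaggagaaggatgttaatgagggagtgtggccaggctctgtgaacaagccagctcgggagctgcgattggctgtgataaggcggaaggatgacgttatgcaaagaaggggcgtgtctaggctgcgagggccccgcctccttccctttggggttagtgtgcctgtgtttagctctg
Rag1 before the start site: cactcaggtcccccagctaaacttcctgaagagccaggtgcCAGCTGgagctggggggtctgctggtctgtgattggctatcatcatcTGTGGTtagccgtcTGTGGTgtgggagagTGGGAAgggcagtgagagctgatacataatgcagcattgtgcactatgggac
The Ebf1 stretch of 200 bases held no match, whereas the Rag1 stretch of 169 bases held 2 Runx matches, 1 E-box and 1 Ikaros match. Of 32851 RefSeq promoters, the same 169 bases held a Runx match in 9.76%, an E-box in 9.17% and an Ikaros match in 14.9%.

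The next 2 sequences are the 201 bases around the summits of regions that gained reads without Daxx, in intron 8 of Ebf1 (chr11:44897384-44897584, plus strand) and downstream of Il7r (chr15:9472277-9472477, minus strand).
Ebf1 intron 8: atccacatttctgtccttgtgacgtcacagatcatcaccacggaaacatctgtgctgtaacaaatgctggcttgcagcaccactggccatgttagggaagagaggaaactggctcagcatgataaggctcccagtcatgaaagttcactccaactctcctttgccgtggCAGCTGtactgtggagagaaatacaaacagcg
Il7r downstream: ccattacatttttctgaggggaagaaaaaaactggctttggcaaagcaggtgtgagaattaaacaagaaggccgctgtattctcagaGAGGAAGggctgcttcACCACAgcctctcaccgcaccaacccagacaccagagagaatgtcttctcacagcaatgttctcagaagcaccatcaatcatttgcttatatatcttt
The Ebf1 window held 1 E-box, and the Il7r window held 1 Pu.1 match and 1 Runx match. The Il7r summit is from the Daxx-KO KLS list. Over all its 44694 peaks, windows of this length held a Pu.1 match in 19%, a Runx match in 23.3% and an E-box in 16%. An Ebf match was held in 3.92%, an Ikaros match in 15.2% and a Gata match in 7.03%. The Ebf1 summit is from the Daxx-KO LT-HSC list at 3 d.p.i. Over its 44326 peaks, such windows held an E-box in 14.8%, a Pu.1 match in 16.4% and a Runx match in 20.6%.

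The last 4 are the same windows at regions whose reads differed between DKO and Daxx-WT KLS cells, in intron 2 of Bcl11a (chr11:24139546-24139746, plus strand), upstream of Ikzf1 (chr11:11667652-11667852, plus strand), upstream of Dntt (chr19:40998580-40998780, plus strand) and upstream of Notch1 (chr2:26549938-26550138, minus strand).
Bcl11a intron 2: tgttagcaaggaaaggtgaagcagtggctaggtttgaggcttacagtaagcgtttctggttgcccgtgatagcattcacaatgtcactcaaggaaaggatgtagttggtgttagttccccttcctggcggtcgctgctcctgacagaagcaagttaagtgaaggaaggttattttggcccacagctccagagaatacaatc
Ikzf1 upstream: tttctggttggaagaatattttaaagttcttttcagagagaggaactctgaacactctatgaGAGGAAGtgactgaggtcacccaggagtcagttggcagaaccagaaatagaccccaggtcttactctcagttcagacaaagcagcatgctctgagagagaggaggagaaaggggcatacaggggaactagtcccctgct
Dntt upstream: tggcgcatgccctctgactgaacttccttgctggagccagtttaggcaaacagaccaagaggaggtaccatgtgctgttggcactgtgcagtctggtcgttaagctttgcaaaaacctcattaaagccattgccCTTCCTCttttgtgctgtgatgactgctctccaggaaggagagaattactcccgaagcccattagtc
Notch1 upstream: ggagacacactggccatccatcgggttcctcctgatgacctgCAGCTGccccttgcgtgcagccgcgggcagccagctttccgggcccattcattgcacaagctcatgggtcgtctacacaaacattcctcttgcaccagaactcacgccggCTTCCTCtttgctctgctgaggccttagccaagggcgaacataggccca
The first 3 had fewer reads in DKO cells and the Notch1 window had more. The Ikzf1, Dntt and Notch1 windows each held 1 Pu.1 match, Notch1 also held an E-box, and the Bcl11a window held no match.

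The 11 peak lists, 1 for each group, held between 22156 and 70455 peaks, of which 34 to 103 lay at the lymphoid genes. That was 0.135% to 0.158% of each list, so the number of lymphoid peaks followed the length of the list. The stem cell genes Hlf, Mecom, Procr and Meis1 had a peak within 10 kb in every list, Slamf1 in all but the Daxx-WT and DKO KLS lists, and genes of cells outside blood had 0 to 6 peaks per list. The mature B cell genes Cd79a and Ms4a1 had 3 to 7 peaks and mature T cell genes (Cd3e, Cd3d, Lck) 4 to 6, with none at Cd3e in any list. The Lin- gate of the ATAC-seq sorts was against surface proteins that include B220 of B cells and CD3e of T cells, and the part of mature lymphoid cells in the results was not tested. The targeted gene Daxx lost reads over its body in all 3 site tables (log2 change of -1.79 at 3 d.p.i., of -2.02 and -2.72 at 2 sites in Daxx-KO KLS cells, and of -1.72 and -2.87 at 2 of its 3 sites in DKO cells, the other having 0.94). In DKO cells 1 of 5 sites in Spi1, the gene of Pu.1, held 2.12 and 4.68 scaled reads against 31.06 and 58.13 in Daxx-WT cells, and the other 4 were higher, with log2 changes of 1.19 to 1.38. In bulk samples, fewer cells with an open region and less accessibility in each cell cannot be told apart.

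Ebf1 had 12 peaks in Daxx-WT LT-HSCs and 14 in Daxx-KO LT-HSCs, against 6 and 9 in CMPs, 6 and 7 in GMPs, 2 and 7 in KLS cells and 1 in DKO cells. Bcl11a, with 18 peaks in both LT-HSC lists, had 16 in CMPs and 18 in GMPs of Daxx-WT mice and 11 in each Daxx-KO progenitor list. Ikzf1 had 13 peaks in Daxx-WT and 19 in Daxx-KO LT-HSCs, 19 and 16 in CMPs, and 21 and 13 in GMPs. The shorter 3 d.p.i. lists held 5 and 6 Ebf1 peaks. Within the first set Ebf1 thus had most peaks in LT-HSCs, while Ikzf1 had at least as many in Daxx-WT progenitors. There was no progenitor list at 3 d.p.i., so the order could not be compared there.

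Notch1 had 10 to 15 peaks in every list, with 14 in each LT-HSC list, 12 to 15 in progenitors and 11, 13 and 13 in Daxx-WT, Daxx-KO and DKO KLS cells. Dntt had 12 and 13 peaks in LT-HSCs and 12 to 15 in progenitors, but 4 in DKO cells. Pax5 had 7 peaks in both LT-HSC lists and 7 and 4 in Daxx-WT and Daxx-KO CMPs. Satb1 had 6 and 9 peaks in LT-HSCs and 5 in every CMP and GMP list. Peaks at Il7r were few. It had 2 and 3 in LT-HSCs, 3 to 5 in progenitors, none in either LT-HSC list at 3 d.p.i. or in DKO cells, 1 in Daxx-WT KLS cells and 5 in Daxx-KO KLS cells. Rag1 and Rag2, whose windows share most of their regions, had 6 and 5 peaks in each LT-HSC list, 2 each in Daxx-WT KLS and DKO cells and 6 each in Daxx-KO KLS cells.

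**Figure D1:**
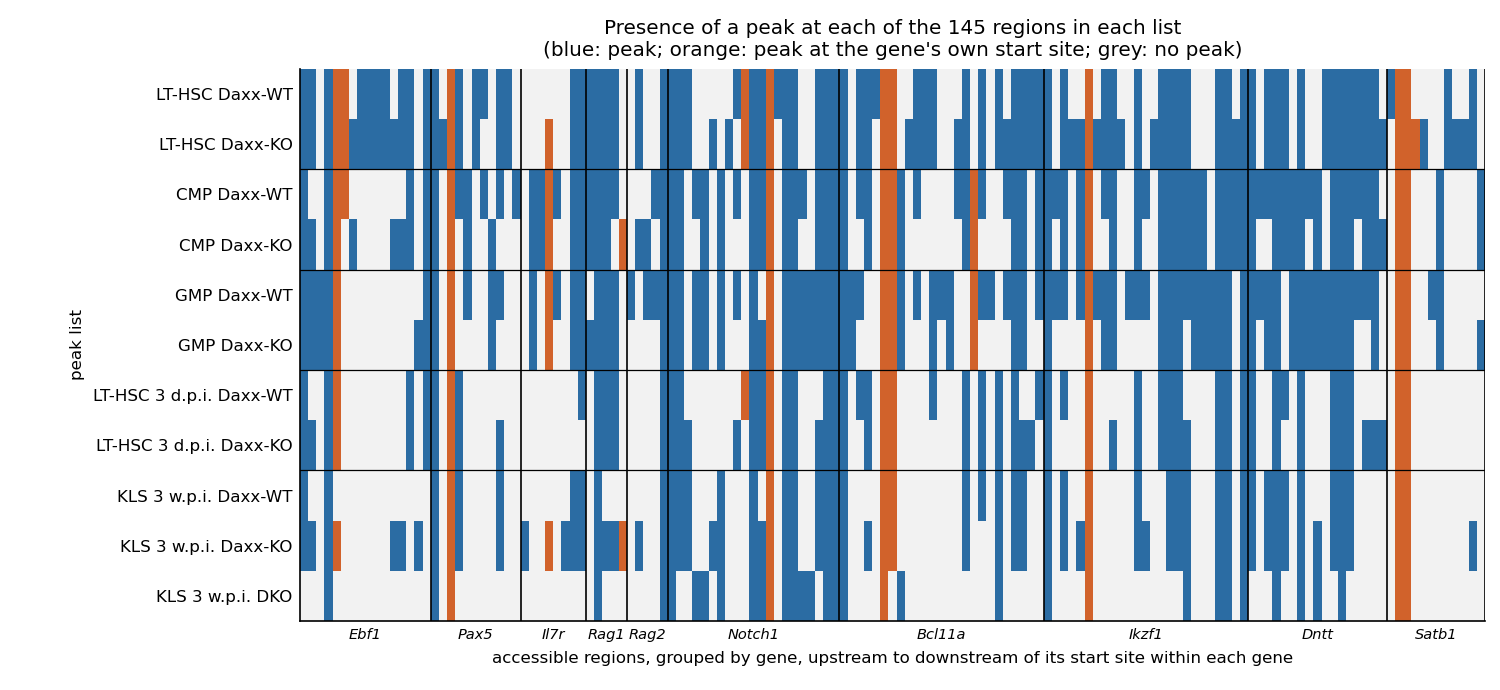
Presence of a peak at each of the 145 regions (horizontal axis, grouped by gene and ordered from upstream to downstream) in each of the 11 lists (vertical axis); blue marks a peak, orange a peak at a start site of the gene itself, grey none. Bars that run through all rows are the 24 regions found in every list, while Ebf1 has a block of regions in the 2 upper rows alone.

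Of the 145 regions, 24 had a peak in all 11 lists, 7 of them at Notch1, 5 at Ikzf1 and 3 at Dntt, whereas Il7r had none. A start site of Pax5, Notch1, Bcl11a, Ikzf1 and Satb1 was open in every list. The promoter of Ebf1, chr11:44616539-44617466, had a peak in all lists but those of Daxx-WT KLS and DKO cells, with widths of 500 to 869 bp. The Il7r promoter, chr15:9529603-9530331, was listed in Daxx-KO LT-HSCs (403 bp), in the CMP and GMP lists (639 to 697 bp) and in Daxx-KO KLS cells (705 bp). The Rag1 promoter, chr2:101649377-101649825, was listed in Daxx-KO CMPs (435 bp) and Daxx-KO KLS cells (423 bp) alone, and no list held a peak at the start sites of Rag2 or Dntt.

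By list, 5 to 8 of the 10 genes had a promoter peak, lowest in Daxx-WT KLS and DKO cells and highest in Daxx-KO CMPs and Daxx-KO KLS cells. The share over all coding genes ran from 51.1% in DKO cells to 68.9% in Daxx-KO LT-HSCs, so the lymphoid genes as a group were near it. Among 40 other lymphoid genes, 16 had a promoter peak in DKO cells, 22 in Daxx-WT KLS cells, 28 in Daxx-KO KLS cells and 31 in Daxx-KO LT-HSCs.

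The first comparison asked which lymphoid regions of LT-HSCs were absent from the myeloid progenitors. Of the 145 regions, 13 had a peak in both LT-HSC lists and in no CMP or GMP list, 4 of them at Ebf1, 3 at Bcl11a and 2 each at Pax5, Notch1 and Satb1. The 4 at Ebf1 lay in intron 6, the widest at chr11:44832656-44833902, +216.0 kb from the start site, with a width of 1247 bp in Daxx-WT and 1150 bp in Daxx-KO LT-HSCs. Widths of the other 3 were 484 to 640 bp and 481 to 671 bp in the 2 LT-HSC lists. No other list held a peak at these 4 regions.

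The distal region of Pax5 that was widest in Daxx-WT LT-HSCs among those with no progenitor peak, chr4:44557639-44558767 in intron 8, measured 983 and 1015 bp in Daxx-WT and Daxx-KO cells. By the same measure that of Bcl11a, chr11:24102012-24103750 in intron 2, was 1739 bp wide in Daxx-WT LT-HSCs, wider than 94.3% of that list, and 465 bp wide in Daxx-KO LT-HSCs. At Satb1 it was chr17:51751795-51752726 in intron 9, with 707 and 932 bp, and it appeared again in Daxx-KO KLS cells with a fold enrichment of 3.44, at percentile 4.1 of that list. Of the 13 regions, 8 had no peak in any 3 d.p.i. or KLS list.

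Other regions had the opposite pattern. In Daxx-WT lists, 40 regions had a peak in either progenitor list and none in LT-HSCs, 9 of them at Ikzf1, 8 at Bcl11a, 5 at Notch1 and 4 each at Il7r and Dntt, and 18 had a peak in LT-HSCs and none in both progenitor lists. Counted as peaks of 1 list, 27 of 94 CMP peaks, 28.7% (95% exact binomial interval 19.9% to 39.0%), and 35 of 96 GMP peaks, 36.5% (26.9% to 46.9%), were without an LT-HSC peak, against 27.0% and 34.4% of all peaks. In turn 20 of 90 LT-HSC peaks, 22.2% (14.1% to 32.2%), had neither a CMP nor a GMP peak, against 24.8%. The lymphoid genes were thus near the whole lists in both directions. A start site within Bcl11a, chr11:24141449-24142701, was open in the 4 CMP and GMP lists, with 1079 to 1234 bp, and in no list of LT-HSCs or KLS cells.

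Distal peaks, those over 1000 bp from every start site, were then counted. In Daxx-WT cells 19 of 68 distal lymphoid peaks of LT-HSCs, 27.9% (95% exact binomial interval 17.7% to 40.1%), had no CMP peak, against 34.3% of all 44529 distal peaks of the list. For GMPs it was 25 of 68, 36.8% (25.4% to 49.3%), against 44.6%. In Daxx-KO cells 32 of 77, 41.6% (30.4% to 53.4%), had no CMP peak, against 49.1%, and 43 of 77, 55.8% (44.1% to 67.2%), had no GMP peak, against 57.6%. All 4 shares lay below those of the whole list and all intervals held it, so a loss particular to the lymphoid genes was not detectable with these numbers of peaks. The intervals cover counting error only, and each group gave 1 list, so there was no replicate check.

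The Daxx-KO list of LT-HSCs held 103 lymphoid peaks and the Daxx-WT list 90. Of the 103, 20 had no Daxx-WT peak, 19.4% (12.3% to 28.4%), against 13.9% of all peaks, with 6 at Ikzf1, 4 at Satb1 and 3 at Bcl11a, and the Il7r promoter was among them. Of the 90, 5 had no Daxx-KO peak, 5.56% (1.83% to 12.5%), against 6.78% of all peaks. In progenitors 23 of 94 CMP peaks, 24.5% (16.2% to 34.4%), and 26 of 96 GMP peaks, 27.1% (18.5% to 37.1%), were without a Daxx-KO peak, against 28.5% and 27.6% of all peaks. The Daxx-KO lists of CMPs and GMPs were shorter than the Daxx-WT lists, 50590 against 66070 and 49677 against 65306 peaks. The largest falls in number were at Ikzf1 in GMPs (21 to 13), Bcl11a in GMPs (18 to 11) and Bcl11a in CMPs (16 to 11). Ebf1 went the other way, from 6 to 9 peaks in CMPs and 6 to 7 in GMPs.

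**Figure D2:**
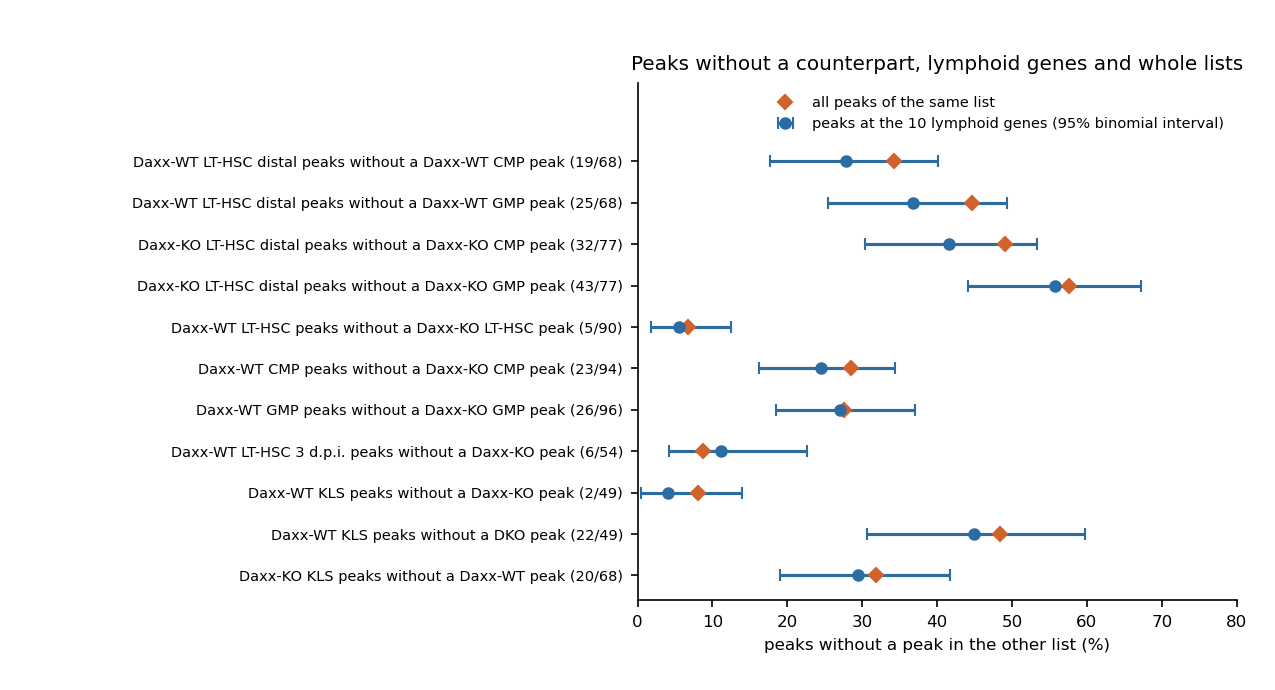
Share of peaks with no overlapping peak in the other list (horizontal axis, percent) for each pair of lists (vertical axis, counts of lymphoid peaks in brackets). Blue points with 95% exact binomial intervals are peaks at the 10 lymphoid genes and orange diamonds are all peaks of the same list; every diamond lies within its interval.

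At 3 d.p.i. 6 of 54 lymphoid peaks of Daxx-WT LT-HSCs, 11.1% (4.19% to 22.6%), were without a Daxx-KO peak, against 8.68%. Peaks at the lymphoid genes had a median fold enrichment over background of 5.8 in Daxx-WT and 6.58 in Daxx-KO cells, against 6.22 and 6.35 over all peaks. Single regions rose or fell in strength between the lists. In the Ebf1 intron 8 region whose sequence is given above, fold enrichment was 4.88 in Daxx-WT and 8.18 in Daxx-KO cells. These were percentiles 28.9 and 69.2 of the lists. A region downstream of Bcl11a, chr11:24184688-24186369, rose nearly as much, from 5.14 to 7.96 (percentiles 33.5 and 67.3). In the Notch1 window, chr2:26566030-26566777 fell from 7.09 to 5.58 (percentiles 60.4 and 39.3).

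The site table of this comparison lists windows of 600 bases or more that differed by the authors' negative binomial test at p below 0.0001, with the scaled reads of each library. Every listed site was therefore chosen for a difference between these same libraries, so the values below describe the sites and the fit measures their spread. Of 11927 sites, 17 lay at the lymphoid genes, and none was called by limma with Benjamini-Hochberg adjustment over all windows tested (0% higher and 0% lower of all sites, smallest adjusted p = 0.301 by limma). All 17 lymphoid sites and 11454 of all sites had an unadjusted p below 0.05 in that fit. A higher mean in Daxx-KO cells was seen at 3 lymphoid sites and a lower mean at 14, against 29.1% higher of all sites, and rescaling the libraries to equal mean reads per window, which moved the median of all sites by 0.33 on the log2 scale, turned none of the 17.

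The 3 higher sites lay at Ebf1, Il7r and Ikzf1. At Ebf1, chr11:44896651-44898100 in intron 8, the Daxx-KO libraries held 199.13, 238.62 and 202.68 scaled reads and the Daxx-WT libraries 98.03 and 95.65. All 3 Daxx-KO libraries were thus above both Daxx-WT libraries, with a log2 change of 1.13 ± 0.22 (SE). At Il7r, chr15:9472301-9473350 at +57.0 kb and nearest to Capsl, they held 43.13, 27.68 and 42.23 against 12.4 and 8.44, a log2 change of 1.76 ± 0.29, although neither 3 d.p.i. list had a peak there. At Ikzf1, chr11:11719501-11720250 in intron 3, they held 36.71, 44.86 and 40.11 against 21.41 and 20.63, a log2 change of 0.91 ± 0.22. These groups did not overlap, at sites listed for a difference between these same libraries.

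The 14 lower sites lay at Pax5 (4), Bcl11a (4), Ikzf1 (3), Notch1 (2) and Satb1 (1), and Rag1, Rag2 and Dntt had none. The largest fall was at Bcl11a, chr11:24223951-24224600, with 18.35, 2.86 and 15.83 in Daxx-KO against 32.68 and 44.08 in Daxx-WT cells (log2 change -1.85 ± 0.63). At Pax5, chr4:44600551-44601250 in intron 7, the values were 8.26, 5.73 and 16.89 against 30.42 and 33.76 (-1.67 ± 0.39). Both sites were outside peaks and held few reads. The other 3 Pax5 sites had log2 changes of -1.43, -1.42 and -1.29, and the lowest values at the remaining genes were -1.40 at Notch1, -1.27 at Satb1 and -1.14 at Ikzf1. The share of listed sites that overlapped a peak of either group was 28.9% over the table, and 4 of the 17 lymphoid sites did so. Besides the Ebf1 site, these were lower, at Bcl11a (chr11:24144551-24145350, 78.92, 80.18 and 95.01 against 122.82 and 122.85), at Ikzf1 (chr11:11666801-11667400, 20.19, 21.95 and 24.28 against 42.82 and 43.14) and at the start of Inpp5e in the Notch1 window, so 1 of 4 was higher where 66.3% of all listed sites in peaks were.

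In KLS cells at 3 w.p.i. the Daxx-KO list gained lymphoid peaks. Of its 68 lymphoid peaks, 20 had no Daxx-WT peak, 29.4% (19.0% to 41.7%), against 31.8% of all peaks, while 2 of 49 Daxx-WT peaks, 4.08% (0.498% to 14%), had no Daxx-KO peak, against 8.06%. The lists held 33325 and 44694 peaks from 2 and 3 libraries, and the lymphoid shares were close to those of the lists as a whole. Both lists were also cut to equal length by fold enrichment. Then 12 of 50 lymphoid peaks of Daxx-KO cells, 24.0%, had no Daxx-WT peak, against 21.3% of all peaks. Of Daxx-WT cells, 12 of 49, 24.5%, had no Daxx-KO peak, against 20.6% of all peaks. At equal length gains and losses were thus equal in number at the lymphoid genes and close over the whole lists.

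The 19 regions with a peak in Daxx-KO and none in Daxx-WT KLS cells were at Ebf1 (5), Il7r (3), Rag1 (3), Notch1 (2), Ikzf1 (2), and 1 each at Rag2, Bcl11a, Dntt and Satb1, and 3 of them were the promoters of Ebf1, Il7r and Rag1. The promoter of Il7r had a fold enrichment of 7.66, at percentile 69.0 of the Daxx-KO list, that of Ebf1 6.78 (percentile 57.5) and that of Rag1 5.02 (percentile 27.7). The other 4 at Ebf1 lay at -30.9 kb and in introns 7, 8 and 10, with fold enrichments of 4.51, 7.22, 5.33 and 6.55. Of the 20 gained peaks, 10 overlapped a peak of Daxx-WT LT-HSCs, 50% (27.2% to 72.8%), against 78.9% of all peaks gained in this list, and 11 a peak of Daxx-WT CMPs or GMPs, 55.0% (31.5% to 76.9%), against 75.8%. The 2 distal Il7r regions, at +57.5 and -45.1 kb, with fold enrichments of 4.72 and 4.77, were in no other list. The 2 Daxx-WT peaks without a Daxx-KO peak lay at Bcl11a and Satb1. The mature B cell genes Cd79a and Ms4a1 had 5 peaks in Daxx-KO and 3 in Daxx-WT KLS cells, the T cell genes had 4 peaks in both, and their part in these gains was not tested.

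**Figure D3:**
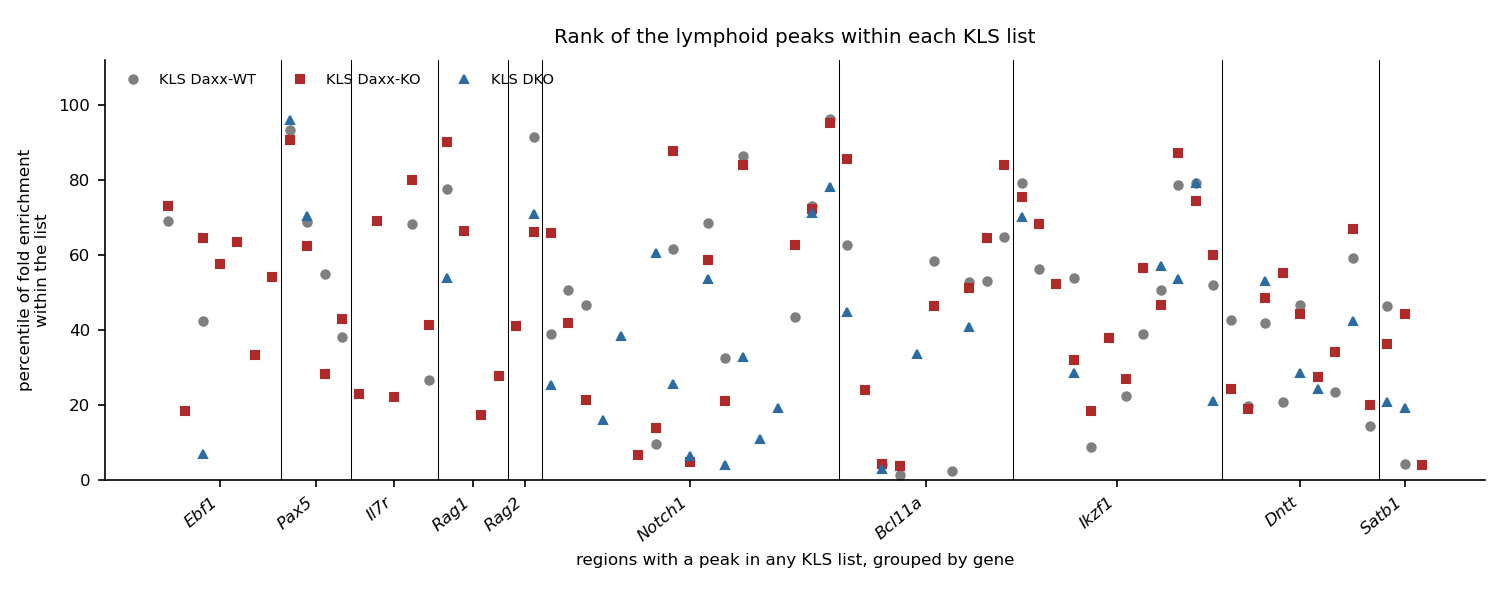
Percentile of each lymphoid peak by fold enrichment within its own KLS list (vertical axis) at every region with a peak in a KLS list (horizontal axis, grouped by gene): grey circles Daxx-WT, red squares Daxx-KO, blue triangles DKO. Red squares without a grey circle are the 19 regions listed in Daxx-KO and not Daxx-WT cells, 5 of them at Ebf1, and most blue triangles are at Notch1 and Ikzf1.

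The windows around the summits of the gained peaks were searched for the motifs given above. A Runx match was held by 10 of the 20 lymphoid peaks without a Daxx-WT peak, 50%, and by 12 of 48 with one, 25.0%, against 28.6% and 20.9% of all such peaks. A Pu.1 match was held by 4 of 20 and 12 of 48, 20% and 25%, against 20.9% and 18.1%. The counts are small and no test was made.

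The table of this comparison lists 17311 sites, 34 of them at the lymphoid genes. None was called by limma with adjustment over all windows (0% higher, 0% lower of all sites, smallest adjusted p = 0.284), and 31 lymphoid and 16749 of all sites had an unadjusted p below 0.05. Of the 34, 19 had a higher mean in Daxx-KO cells, against 19.1% of all sites, and the median log2 change was 0.66 at the lymphoid sites and -1.27 over all. Rescaling, which moved the median of all sites by 0.47, turned none of the 34. All 4 Dntt sites, all 3 Pax5 sites, both Il7r sites and the Rag1 site were higher, all 3 Bcl11a sites, the Satb1 site and the Rag2 site were lower, and Ebf1 (5 higher, 3 lower), Ikzf1 (2 and 5) and Notch1 (2 and 2) had both.

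At sites that overlapped a peak of either group, 10 of the 34 against 20.1% of all sites, the lymphoid sites were all higher, 10 of 10, where 61.0% of all such sites were. By list, 7 of the 10 lay in a peak of the Daxx-KO list alone, where 83.5% of all sites were higher, and 3 in a peak of both lists, where 51.8% were. Among the 40 other lymphoid genes, 28 of 34 sites in peaks were higher, 82.4%. Since the sites were selected on these libraries and none was called, this is a description of the listed sites.

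Ebf1 gave 3 of the 10. Its promoter site, chr11:44617001-44617600, held 89.08, 136.47 and 83.72 scaled reads in Daxx-KO cells and 57.47 and 45.85 in Daxx-WT cells, a log2 change of 0.96 ± 0.33. The intron 8 site, chr11:44892651-44893850, held 120.25, 160.09 and 116.65 against 56.56 and 69.92 (1.05 ± 0.30). It is not the intron 8 region that was higher at 3 d.p.i., which had no peak in any KLS list. The intron 10 site, chr11:44928151-44928950, held 32.29, 90.98 and 41.39 against 20.07 and 13.76 (1.52 ± 0.45). Daxx-KO libraries lay above both Daxx-WT libraries at each, by the widest margin in library 2.

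Il7r, the interleukin-7 receptor gene, gave 2. The site at chr15:9471801-9472950 held 62.35, 60.36 and 48.92 in Daxx-KO against 18.24 and 24.07 in Daxx-WT cells, a log2 change of 1.40 ± 0.30. It overlaps the Il7r site listed as higher in LT-HSCs at 3 d.p.i., a comparison that shares no library with this one. That was 1 of the 3 higher lymphoid sites of that table, where 6.59% of all its higher sites overlapped a higher site of this one. A Bcl11a site, chr11:24121251-24121900, was likewise lower in both, 1 of 14 against 3.76% of all lower sites. The site at chr15:9574501-9575300, -45.1 kb from the start site, held 60.13, 73.48 and 49.86 against 31.02 and 30.95 (0.94 ± 0.30). The 3 Daxx-KO libraries were above both Daxx-WT libraries at both.

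Dntt also gave 2, at chr19:41021851-41022850 before the gene with 172.58, 307.05 and 195.67 against 121.33 and 131.82 (0.78 ± 0.34), and at chr19:41038801-41039900 in intron 3 with 110.23, 132.97 and 85.6 against 55.65 and 57.31 (0.92 ± 0.31). The Pax5 site, chr4:44703551-44704250 at an inner start site, held 60.13, 67.36 and 63.97 against 35.58 and 28.66 (0.98 ± 0.29), the smallest SE of the 10. The Notch1 site, chr2:26512901-26514000, held 230.48, 388.41 and 307.61 against 212.55 and 176.53 (0.64 ± 0.33). At the Rag1 promoter, chr2:101649401-101650150, the groups overlapped, with 25.61, 93.6 and 55.5 against 24.63 and 26.36 (0.98 ± 0.49), so its rise rested on libraries 2 and 3.

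Daxx-KO library 2, the shallowest at 4.54 reads per 600-base window against 5.59 to 8.36 in the others, was the highest of all libraries at 9 of the 10 sites, as it was at 67.5% of all higher sites in peaks, and the lowest at 11 of the 15 lower lymphoid sites, against 57.7% of all. Without it all 10 sites still had the higher mean in Daxx-KO cells. Its part in the size of the changes was not tested.

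Outside peaks, 9 of 24 lymphoid sites were higher, 37.5%, against 8.6% of all such sites. Taking 1 site for each gene, the largest rises were 1.56 ± 0.41 at Ebf1 (chr11:44919751-44920500, 35.63, 48.99 and 18.81 against 9.12 and 11.46), 1.28 ± 0.33 at Pax5 and 1.04 ± 0.31 at Dntt, and the largest falls -2.04 ± 0.58 at Ebf1 (chr11:44597351-44598000, 12.25, 1.75 and 3.76 against 20.07 and 24.07), -1.74 at Ikzf1, -1.57 at Rag2 and -1.50 at Notch1. The falls were at low counts.

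**Figure D4:**
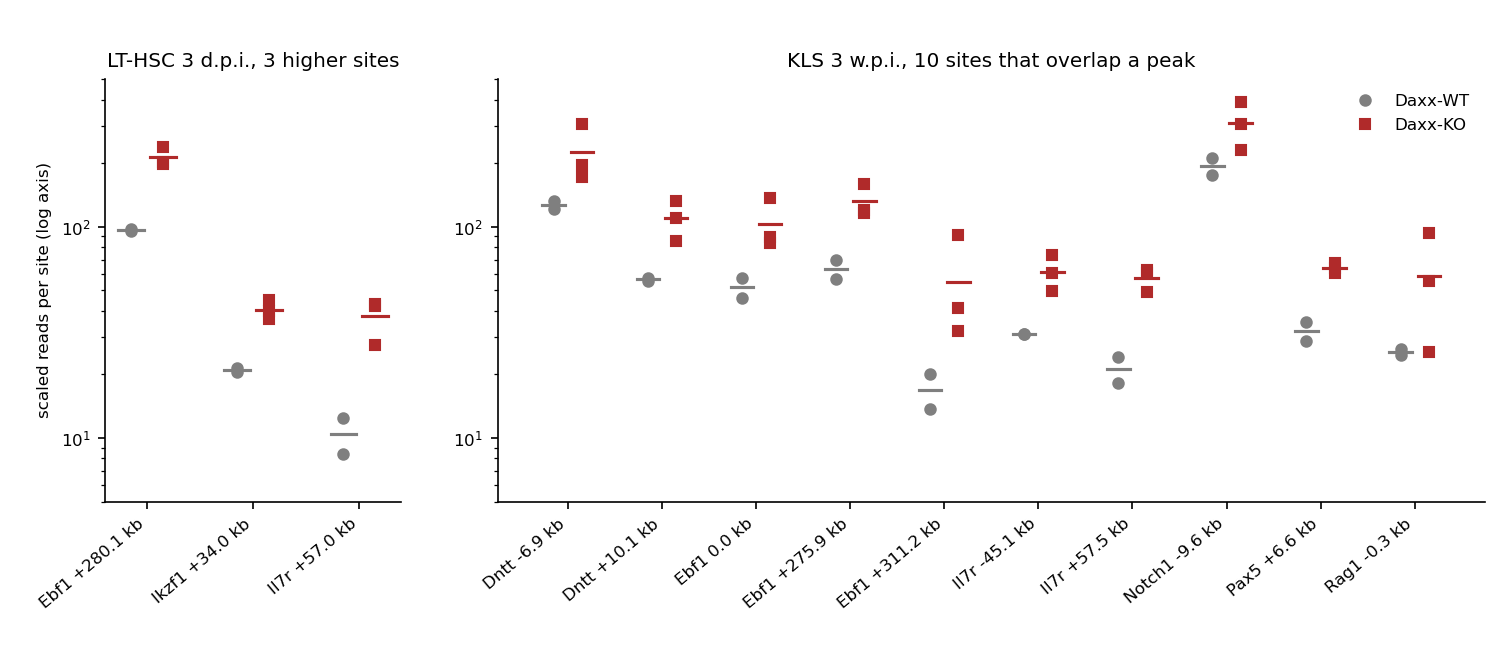
Scaled reads per library (vertical axis, log scale) at the 3 lymphoid sites higher in Daxx-KO LT-HSCs at 3 d.p.i. (left) and the 10 lymphoid sites in peaks in KLS cells at 3 w.p.i. (right), named by gene and distance from its start site. Grey circles are Daxx-WT and red squares Daxx-KO libraries and bars are means; the groups overlap at the Rag1 site alone.

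DKO cells had the shortest list and the fewest lymphoid peaks, 34 of 22156, with a median fold enrichment of 4.31 against 4.93 over the list. Of 49 lymphoid peaks in Daxx-WT KLS cells, 22 had no DKO peak, 44.9% (30.7% to 59.8%), against 48.4% of all peaks. The 22 peaks lost were 6 at Bcl11a, 5 at Dntt, 4 at Ikzf1, 3 at Notch1, 2 at Pax5 and 1 each at Il7r and Ebf1. They include the peak at -36.0 kb of Ebf1 and that at +66.0 kb of Il7r, the latter present in 8 of the other 10 lists. Of the 34 DKO peaks, 7 had no Daxx-WT KLS peak, 20.6% (8.7% to 37.9%), against 21.4% of all DKO peaks, with 5 at Notch1 and 1 each at Bcl11a and Dntt. All 7 overlapped a peak of Daxx-WT CMPs or GMPs, as 75.4% of all DKO peaks without a Daxx-WT KLS peak did. Genes of granulocyte and monocyte progenitors had 22 peaks in Daxx-WT KLS and 8 in DKO cells, and the stem cell genes 23 and 8. These falls were steeper than those of the lymphoid peaks, 49 to 34, and of the whole list, 33325 to 22156. Marker peaks were counted within 10 kb of a gene and lymphoid peaks within 50 kb, so the falls are not strictly comparable. The cause of the falls was not tested.

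A Pu.1 match lay in 6 of the 22 lymphoid peaks without a DKO peak, 27.3%, and in 7 of the 27 with one, 25.9%, whereas over the whole list the shares were 23.4% and 13.3%. An E-box lay in 6 of 22 and 1 of 27, 27.3% and 3.7%, against 16.5% and 13.1%. Such matches are letters in a window, and no binding was measured.

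Of 50928 listed sites, 92 lay at lymphoid genes. As in the other tables, all were listed for a difference between these same libraries, so calls and adjusted p-values describe the listed sites. Here limma took 1 spread for all sites, so each p-value follows the size of the change and not the agreement of libraries there. By limma with adjustment over all windows 60 were called higher and 11 lower in DKO cells, against 67.3% and 14.9% of all sites, and 64 of 92 had a higher mean, against 72.1%. The split depended on scaling. With libraries brought to equal mean reads per window, which moved the median of all sites by -0.67, 2 lymphoid sites were called higher and 26 lower (3310 and 13843 of all), though no site of the 92 changed direction. The DKO libraries held 9.98 and 16 reads per window and the Daxx-WT libraries 8.35 and 7.45. With 2 libraries a group, calls also needed both DKO libraries, over the whole table as at the lymphoid sites. Leaving out a library left 1 in its group, so no counts for such fits are given here.

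Of the 28 lymphoid sites in a peak, 6 were higher and 22 lower, where 30.2% of all such sites were higher, and 27.7% of all sites were in a peak. By list, 16 of the 28 lay in a peak of Daxx-WT cells alone, of which 1 was higher (2.67% of all such sites), 9 in a peak of both lists, of which 2 were higher (24.9%), and 3 in a peak of DKO cells alone, all higher (99.6%). Of the 64 outside peaks, 58 were higher, 90.6%, against 88.2% of all sites outside peaks, so the division by peaks was that of the whole table. The sites in peaks that were higher were 5 at Notch1 and 1 at Bcl11a, and all those at Il7r, Rag1, Rag2, Ikzf1, Dntt and Satb1 were lower.

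Bcl11a, with 7 of its 8 sites in peaks lower, had the largest fall. At chr11:24139001-24140250 in intron 2, the DKO libraries held 44.54 and 57.15 scaled reads and the Daxx-WT libraries 183.7 and 138.2, a log2 change of -1.64 ± 0.36 (limma adjusted p = 0.000211, and 0.00274 after rescaling). Both DKO libraries were below both Daxx-WT libraries, at a site listed for a difference between them. At chr11:24184551-24185750, downstream of the gene, they held 38.17 and 59.02 against 104.72 and 131.62 (-1.29 ± 0.36, limma adjusted p = 0.00523). The start site of Bcl11a at chr11:24077501-24078200 held 193.0 and 127.41 against 246.71 and 235.81, a log2 change of -0.62 that did not pass (limma adjusted p = 0.753).

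Dntt had 6 of 7 sites lower, 5 of them in peaks. The largest fall, at chr19:40998151-40999550, lay nearest to Blnk, with 65.75 and 59.02 against 155.3 and 150.26 (-1.28 ± 0.36, limma adjusted p = 0.00559). Within the gene, chr19:41030601-41031900 in intron 1 held 98.62 and 74.01 against 186.37 and 141.49, a log2 change of -0.92 that passed only after rescaling (limma adjusted p = 0.104, and 0.0148 rescaled). At Il7r, chr15:9463201-9464450 held 42.42 and 48.72 against 109.16 and 109.68 (-1.25 ± 0.36, limma adjusted p = 0.00736). It is the region near Capsl whose DKO peak was missing.

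The Ikzf1 region at chr11:11667051-11668350, before the gene, held 62.56 and 70.26 against 126.91 and 123.94, a log2 change of -0.91 that did not pass as deposited (limma adjusted p = 0.111) and passed after rescaling (0.00664). At Notch1, chr2:26482801-26484250 in intron 4, a region open in all 11 lists, held 132.55 and 131.16 against 255.59 and 301.62 (-1.07 ± 0.36, limma adjusted p = 0.0328), and its fold enrichment was 8.56 in Daxx-WT and 4.18 in DKO cells. At Rag2, chr2:101628601-101629200 in intron 2, the values were 107.1 and 91.81 against 182.82 and 137.1 (-0.67, limma adjusted p = 0.552).

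Notch1 had the sites in peaks with more reads in DKO cells. The widest, chr2:26549051-26552100 near Egfl7, held 428.41 and 332.59 against 147.32 and 173.29, a log2 change of 1.24 ± 0.36 (limma adjusted p = 0.00828). After rescaling the change was 0.54 and none of the 5 passed, with changes of 0.06 to 0.59. At chr2:26476001-26477050 in intron 13 the libraries held 117.71 and 133.97 against 40.82 and 64.71 (1.27 ± 0.36, limma adjusted p = 0.00603).

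Outside peaks, the largest rise was at Satb1, chr17:51755551-51756700 in intron 9, with 131.49 and 67.45 against 17.75 and 16.45, a log2 change of 2.40 ± 0.36 (limma adjusted p = 1.81e-08), and it passed after rescaling as well (1.73, limma adjusted p = 0.02). The other site that did so was at Pax5, chr4:44529951-44530600 in its last exon, with 25.45 and 36.54 against 5.32 and 8.77 (2.00 before and 1.37 after rescaling, limma adjusted p = 0.0208 rescaled). All 4 Ebf1 sites were outside peaks and higher, the largest with 26.51 and 34.66 against 10.65 and 4.39 (1.98, and 1.34 rescaled). The Daxx-KO and DKO comparisons in KLS cells share their Daxx-WT libraries, so their changes are given for each on its own.

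**Figure D5:**
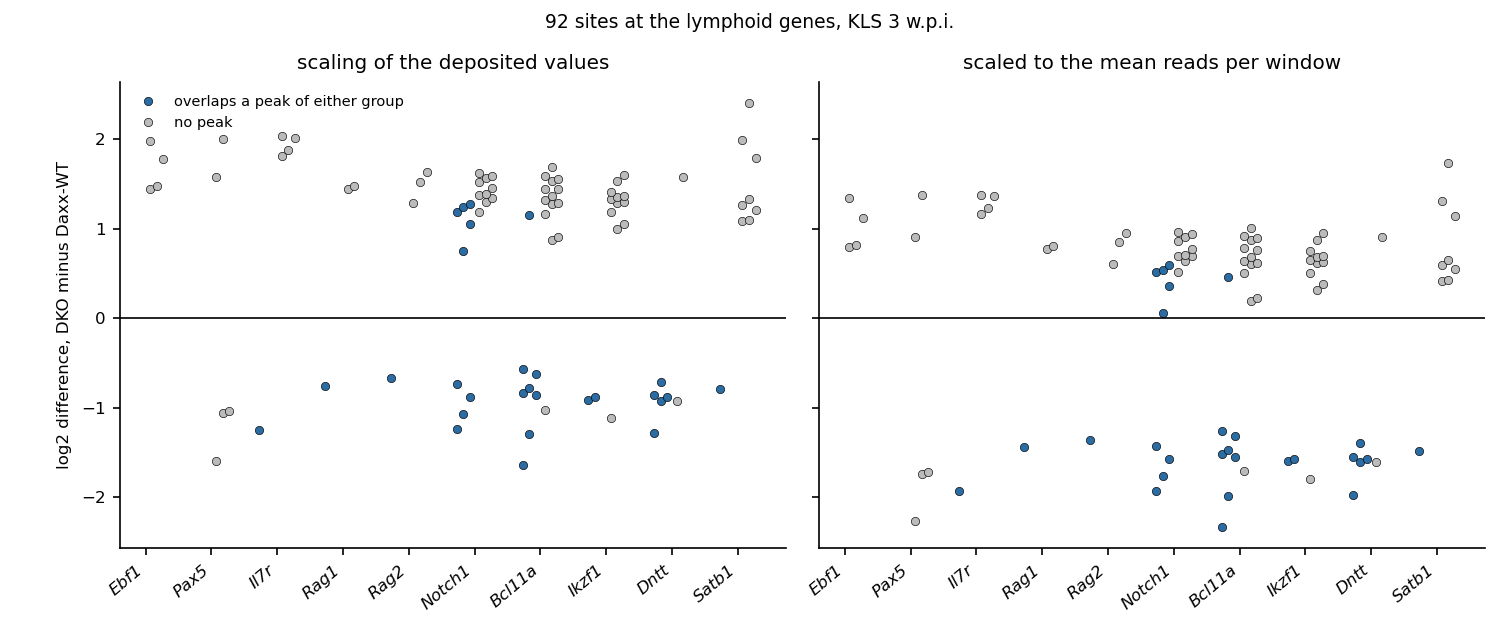
Log2 difference between DKO and Daxx-WT KLS cells (vertical axis) at the 92 listed lymphoid sites, by gene (horizontal axis), with the deposited scaling (left) and with libraries brought to equal mean reads per window (right). Blue points overlap a peak of either group and grey points do not; rescaling lowers all points by about the same amount and none crosses 0.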

How the data were processed

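The authors made 1 peak list per group. The 6 lists of the first set hold peak positions only, and in the other 5, lists of peaks reproducible between libraries, the deposited fold enrichment over background, a ratio from the peak caller, was used as strength. The 3 site tables came, per the file headers, from diffReps 1.55.6 (negative binomial test, windows of 600 bases in steps of 50, p below 0.0001). Their values per library are read numbers divided by a constant for each library, so the deposited values are scaled counts, and tables were scaled separately. The submitters' processing notes name mm10, CASAVA 1.8.4, cutadapt 1.13, STAR 2.5.3 and bedtools. The peak caller is not given in the sources used here. Columns with the authors' group means, fold changes, p-values and event labels were not used.

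Peaks and sites were assigned to GENCODE genes on mm10 within 50 kb, with an overlap of at least 1 bp between lists. Sites were fitted whole with limma 3.58.1 (R 4.3.3) on log2(value + 1), adjusted by Benjamini-Hochberg over every window tested according to the headers, with a threshold of 0.05; a fold change on this scale understates that of low sites. The fit was checked on simulated data. In the DKO fit limma took 1 spread for all sites (SE 0.36). Tests compared the 2 or 3 libraries of each group. The study's methods call the libraries biological replicates, but the labels do not tie them to animals. The p-values thus rest on the spread between these samples, and in the DKO fit on 1 spread over all sites. Depth was known for the second set only, as 4.21 to 16 mean reads per window. Exact binomial intervals at the 95% level cover counting error.

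The members and lists were chosen with earlier results of these data known. All 10 genes were named, with their promoter regions, the distal region strongest in Daxx-WT KLS cells, the widest distal LT-HSC region without a CMP or GMP peak, and in each table the largest change in each direction. Sites in peaks, the gained regions, the sequences shown and the shares of LT-HSC, progenitor and DKO peaks gained or absent in turn were chosen after their values were seen. Alternatives were the scaling, pseudocount, filter, gene window, overlap, list length, adjustment, replicate block and each library left out. Some marker genes of the stem and B cell lists are not reported here and were left out of those counts.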

Additional observations from a re-analysis of the deposited data

How the results depend on the processing

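Of 48 alternative values of the peak shares (other gene windows, overlaps, distal limits and list lengths), 47 stayed within the binomial interval of the value reported. The exception was the share of Daxx-WT KLS lymphoid peaks without a Daxx-KO peak, 4.08% as reported and 24.5% with both lists at the length of the shorter, where all peaks gave 20.6%. In LT-HSCs at 3 d.p.i. 12 of 13 alternatives called none of the 17 lymphoid sites, and adjustment over the listed sites alone called all 17 (95.8% of all sites). In KLS Daxx-KO cells 11 of 14 called none, a pseudocount of 5 called 2 of 34 (1 higher, 1 lower), against 25.2% of all sites, and adjustment over the listed sites called 30 (15 and 15), against 96.5%. Leaving out any 1 Daxx-KO library called 0 in both, and 0% of all sites. In DKO cells 71 of 92 sites were called as reported and 28 (2 higher, 26 lower) after rescaling, against 82.2% and 33.7% of all sites. Within 10 kb of the genes 46 of 59 were called. In peaks 11 of 28 were called (5 and 6). The share called over all sites in peaks was not counted, so this count cannot be compared with the whole table. The median log2 change of sites in peaks was -0.81 at the lymphoid genes and -0.86 over all. Leaving out 1 library gave 0 to 63 calls, 0 without DKO library 1 or DKO library 2, 39 without Daxx-WT library 1 and 63 without Daxx-WT library 2, and a lone library was assumed to vary like the other group. Over all listed sites the calls fell in each of these fits too, so the drop was not confined to the lymphoid sites. The cause of these changes was not tested. A site under 600 bases or below the authors' threshold is not in the tables.

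The KLS labels number the libraries, but same-numbered libraries did not deviate together (correlations of 0.00844 and 0.0517 for Daxx-KO and -0.00308 for DKO against Daxx-WT), so the numbers were not taken as pairs. With the replicate block 5 of 34 lymphoid sites were called in Daxx-KO KLS cells (1 higher, 4 lower), against 13.3% of all sites, and 72 of 92 in DKO cells (61 and 11), against 83.7%. For the 3 d.p.i. table no such fit could be made because its header carries no replicate numbers.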
